A study of Mus musculus with 8 samples.

Results

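The 9 genes described here are a chosen set of EGF receptor family members, ligands and inhibitors, followed through 8 livers that differ in genotype and sex. They were taken as a list of names, out of 35275 gene identifiers in the deposited table: the receptors Egfr, Erbb2 and Erbb3, the ligands Areg, Hbegf, Tgfa and Btc, and the inhibitors Lrig1 and Errfi1. All 9 had a mean of at least 0.5 FPKM, the limit for testing, although Erbb2, Areg and Hbegf had WT means under it and passed it through the LKO-labelled libraries. FPKM is the fragment count of a gene divided by its length and by the depth of the library, so that levels of different genes can be set side by side.

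RNA came from 4 livers labelled Triple LKO and 4 livers labelled WT, with 2 females and 2 males of each genotype. The title of the series names a liver-specific loss of the TTP (tristetraprolin) family, whose genes in liver are Zfp36, Zfp36l1 and Zfp36l2. The labels give neither the Cre driver and floxed alleles, nor age, nor strain, nor whether a sample held tumour tissue. They do not say that the samples are separate animals, so p-values measure only the spread between these samples.

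EGF receptors are membrane tyrosine kinases that pair up when an EGF-like ligand binds and then switch on the RAS to ERK cascade, which drives cell growth and division. The ligands are made as membrane-anchored precursors that ADAM proteases cut free, and inhibitors such as LRIG1 and ERRFI1 end the signal by removing the receptor or blocking its kinase. Hepatocytes are known for a high level of EGFR, which takes part in liver regeneration. TTP proteins recognise AU-rich stretches of the 3′ UTR, the untranslated end of an mRNA, and speed up the decay of that mRNA.

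The 3′ UTRs of the members were searched for the heptamer TATTTAT and for the nonamer TTATTTATT, which contains the heptamer, on the mRNA strand only. All 9 genes were matched in the GENCODE M21 transcripts of the GRCm38 (mm10) assembly, with 1 transcript a gene. The heptamer stood in 7 of the 9 3′ UTRs and the nonamer in 4, while among 21021 protein-coding genes with an annotated 3′ UTR the heptamer stood in 25.5% and the nonamer in 6.98%. Long 3′ UTRs hold such short words more often, so the share among 3′ UTRs of 0.8 to 1.25 times the length is given for each gene. The following sites are shown because they are where the AU-rich words fall in the ligands, receptors and inhibitors whose levels are described next; each is read 5′ to 3′ on the mRNA strand, and capitals mark the nonamer or, where there is none, the heptamer.

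Areg: atttaagtgTTATTTATTttatagctc

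Tgfa, first site: atgcgtgtcTTATTTATTagatggata

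Tgfa, second site: ttgcctttccTATTTATtttcaagcat

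Erbb3: ctgtaaggaTTATTTATTtcaggaact

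Lrig1: tgtacagagTTATTTATTtatagaaat

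Egfr: gttacaataaTATTTATgtttgtttgg

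Errfi1: ttatattactTATTTATgacaccgtt

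Coordinates cover each printed stretch, and distances from the stop codon are to the first base of the heptamer, also inside a nonamer. The Areg site (chr5:91148383-91148409, plus strand) lay 214 bases after the stop codon in a 3′ UTR of only 253 bases, and 1.69% of 3′ UTRs of like length held the nonamer. Tgfa had its nonamer 490 bases after the stop (chr6:86272435-86272461, plus strand) and a separate heptamer at base 981 (chr6:86272926-86272952), in a 3′ UTR of 3764 bases, with the nonamer in 16.9% of 3′ UTRs of like length. The Erbb3 nonamer (chr10:128568186-128568212, minus strand) lay 1166 bases after the stop, and 9.75% of like-length 3′ UTRs held one. In Lrig1 the nonamer (chr6:94604623-94604649, minus strand) ran into an overlapping heptamer, 1120 and 1124 bases after the stop, and 8.33% of like-length 3′ UTRs held a nonamer.

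Egfr and Errfi1 held 1 heptamer each and no nonamer, in 3′ UTRs of 6303 and 1385 bases. The Egfr heptamer (chr11:16916289-16916315, plus strand) lay 4444 bases after the stop, where 73.7% of like-length 3′ UTRs held the heptamer, and the Errfi1 one (chr4:150868862-150868887, plus strand) lay 1370 bases after it, against 33.0% of like-length 3′ UTRs. Hbegf, on chromosome 18, held 2 heptamers and no nonamer in 1456 bases, against 34.2% of like-length 3′ UTRs with a heptamer. Neither word was found in Btc or Erbb2. A match describes these letters and says nothing of whether a TTP protein binds there.

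**Figure D1:**
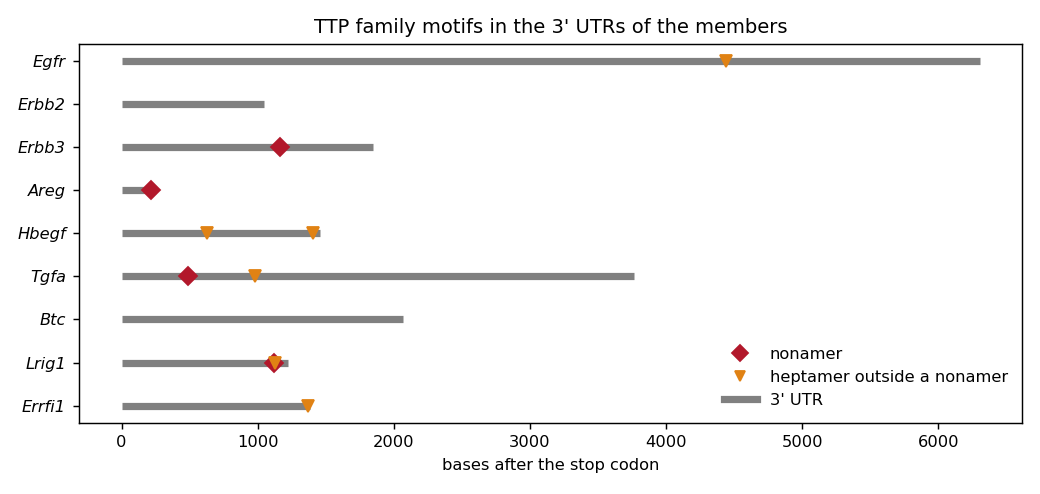
Position of the heptamer and the nonamer in the 3′ UTR of each of the 9 genes; the horizontal axis is the distance from the stop codon in bases, each grey bar is 1 3′ UTR and each mark 1 match. Matches stand in 7 genes, nonamers in Areg, Tgfa, Erbb3 and Lrig1, and none in Btc and Erbb2.

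The libraries held between 15.1 and 18.8 M fragments. The targeted genes were read first. Zfp36 stood at 3.66 to 17.4 FPKM in LKO-labelled livers, against 29.5 to 61.4 FPKM in WT livers, and Zfp36l1 at 0.499 to 8.63 FPKM, against 10.6 to 21.9 FPKM. In the LKO-labelled females Zfp36 stood at 11.6 and 17.4 FPKM and Zfp36l1 at 4.67 and 8.63 FPKM. In the LKO-labelled males they stood lower, at 4.51 and 3.66 FPKM and at 0.499 and 0.695 FPKM. The limma test of a difference between the sexes passed for Zfp36, Zfp36l1 and Zfp36l2 (adjusted p = 0.0267, 0.0330 and 0.0212), and in 8, 7 and 9 of 15 alternatives. Within females Zfp36l1 did not pass (limma adjusted p = 0.0798). Zfp36l2 stood at 4.34 and 3.86 FPKM in the LKO-labelled males, but at 18.1 and 33.04 FPKM in LKO-labelled females 1 and 2, higher than in any of the 4 WT livers (11.8 to 17.2 FPKM), so for Zfp36l2 the females go against their label; FPKM over a whole gene does not tell deleted from intact exons. The 2 LKO-labelled females also resembled each other least (correlation of log2 values 0.882), and Gm42418 took 0.0423% of fragments in LKO-labelled female 1 and 0.0602% in WT male 4, against 3.19 to 4.34% in the other 6 libraries. For the 9 genes each test is given over all 8 libraries and also within females and within males. The tests within a sex use a spread shared by all 8 libraries, so their p-values do not measure the spread within that sex alone.

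Of the 9 genes, 4 had all LKO-labelled livers above all WT livers (Areg, Hbegf, Btc and Lrig1) and 2 had all of them below (Egfr and Errfi1). Of the 13573 genes tested, 31.3% had no overlap between the genotypes, 25.6% with the LKO-labelled livers above and 5.72% with them below. With limma on log2(FPKM + 1), sex as a term and Benjamini-Hochberg adjustment over all 13573 genes, Hbegf and Btc rose and Egfr and Errfi1 fell. The same threshold, an adjusted p under 0.05, was passed by 30.4% of genes, 24.7% higher and 5.74% lower. The median log2 change of all genes was 0.39, so values near that are no departure from the bulk of genes.

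Egfr encodes the receptor for EGF, TGFA, AREG, HBEGF and BTC (ENSMUSG00000020122, chr11:16752203-16918158, plus strand). Its level was 4.95 and 14.2 FPKM in LKO-labelled females 1 and 2 and 9.004 and 4.35 FPKM in LKO-labelled males 3 and 4, against 30.4 and 26.4 FPKM in the WT females and 49.5 and 49.7 FPKM in the WT males. The highest LKO-labelled liver stood below the lowest WT liver, and the WT males above the WT females. The means were 8.13 ± 4.55 FPKM in LKO-labelled livers and 39.01 ± 12.3 FPKM in WT livers (SD, n = 4 each), so that 20.8% of the WT level was left. On the log2(FPKM + 1) scale Egfr fell by 2.21 ± 0.37 (SE; limma adjusted p = 0.00537). In whole tissue, fewer cells of a type and less RNA per cell cannot be told apart, here and for every gene that follows.

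The fall of Egfr passed the test in each sex, with a change of -1.63 ± 0.46 on the log2 scale within females (limma adjusted p = 0.0303) and of -2.79 ± 0.46 within males (adjusted p = 0.00911). Within females 34.3% of all tested genes passed in either direction and 6.23% passed lower, and within males 17.5% and 4.09%. The difference between the sexes did not pass (1.17, female minus male, adjusted p = 0.309). WT males stood above WT females by 0.79 ± 0.46 on the log2 scale, a difference that also did not pass (adjusted p of 1; 0.427% of genes passed this contrast, which was added after the values were seen).

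Erbb3 encodes a receptor with little kinase activity of its own that binds neuregulins (ENSMUSG00000018166, chr10:128567523-128589652, minus strand). It stood at 9.15 and 17.1 FPKM in LKO-labelled females and 19.0 and 13.6 FPKM in LKO-labelled males, against 12.9 and 28.1 FPKM in WT females and 33.6 and 12.6 FPKM in WT males. The genotypes overlapped, and livers of 1 sex and genotype differed by as much as the genotypes did. The means of 14.7 ± 4.33 and 21.8 ± 10.7 FPKM (SD, n = 4 each, LKO-labelled livers first) gave a log2 change of -0.46 ± 0.37 that did not pass (limma adjusted p = 0.352). The value was -0.57 within females (adjusted p = 0.439) and -0.34 within males (adjusted p = 0.713), and the sexes differed by -0.23 (adjusted p = 0.878).

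Erbb2, the family member without a known ligand of its own and a favoured partner of the others (ENSMUSG00000062312, chr11:98412470-98437716, plus strand), was low throughout. It stood at 0.666 and 2.47 FPKM in LKO-labelled females and 0.0956 and 0.0224 FPKM in LKO-labelled males, against 0.348 and 0.270 FPKM in WT females and 0.210 and 0.264 FPKM in WT males. The LKO-labelled females stood above all WT livers and the LKO-labelled males below all of them, in which the gene had 9 and 2 fragments. The log2 change was 0.33 ± 0.32 over both sexes (limma adjusted p = 0.442), 0.88 within females (adjusted p = 0.0867) and -0.22 within males (adjusted p = 0.711). The difference between the sexes, 1.1, had an adjusted p of 0.21. Egfr was thus the only receptor of the 3 to pass the test over all 8 libraries.

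**Figure D2:**
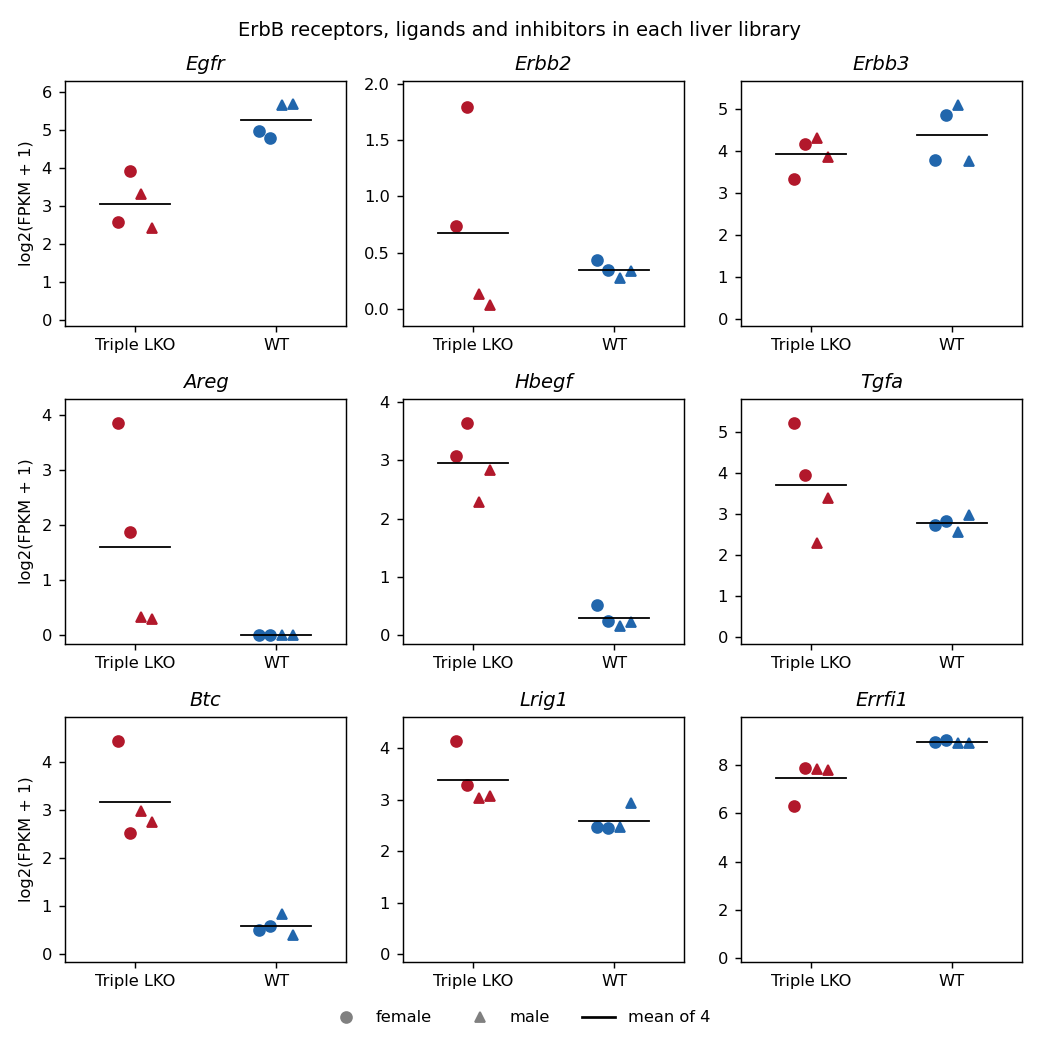
Level of each of the 9 genes in each liver as log2(FPKM + 1), 1 panel a gene, with LKO-labelled livers left of WT livers, females as circles and males as triangles; lines are the means of 4 livers on that scale. The 4 LKO-labelled livers lie above the WT livers for Areg, Hbegf, Btc and Lrig1 and below them for Egfr and Errfi1; Areg is listed at 0 in every WT liver.

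Hbegf, the heparin-binding ligand of EGFR and ERBB4 that is also the diphtheria toxin receptor in humans (ENSMUSG00000024486, chromosome 18), stood at 7.41 and 11.5 FPKM in LKO-labelled females and 3.88 and 6.10 FPKM in LKO-labelled males, against 0.431 and 0.174 FPKM in WT females and 0.117 and 0.167 FPKM in WT males. The lowest LKO-labelled liver was well above the highest WT liver. Mean levels were 7.21 ± 3.18 and 0.222 ± 0.142 FPKM (SD, n = 4 each, LKO-labelled first), a 32.5-fold difference. The WT values rest on only 17, 7, 5 and 6 fragments (females first), so this fold is not well measured. The log2 change on the log2(FPKM + 1) scale, which understates folds of low genes, was 2.67 ± 0.24 (limma adjusted p = 0.000698).

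Btc encodes betacellulin, which also binds EGFR and ERBB4 (ENSMUSG00000082361, chr5:91357261-91402994, minus strand). It stood at 20.6 and 4.79 FPKM in LKO-labelled females and 6.90 and 5.75 FPKM in LKO-labelled males, against 0.419 and 0.512 FPKM in WT females and 0.789 and 0.322 FPKM in WT males. LKO-labelled female 1 was the highest, and all 4 LKO-labelled livers lay above every WT liver. The means, 9.52 ± 7.46 and 0.510 ± 0.201 FPKM (SD, n = 4 each, LKO-labelled first), differed 18.7-fold, and the log2 change was 2.59 ± 0.39 (limma adjusted p = 0.00366). Without LKO-labelled female 1 the LKO-labelled mean was 5.82 FPKM and the difference 11.4-fold.

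Hbegf and Btc rose within each sex as well. Hbegf had a log2 change of 2.98 within females (limma adjusted p = 0.000638) and of 2.37 within males (adjusted p = 0.00398). For Btc the values were 2.93 within females (adjusted p = 0.00603) and 2.25 within males (adjusted p = 0.0298). The sexes differed by 0.62 for Hbegf (adjusted p = 0.387) and by 0.69 for Btc (adjusted p = 0.612), and neither difference passed.

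Areg encodes amphiregulin, a ligand of EGFR alone (ENSMUSG00000029378, chr5:91139599-91148432, plus strand). It stood at 13.4 and 2.69 FPKM in LKO-labelled females and at 0.266 and 0.234 FPKM in LKO-labelled males, and was listed at 0 in all 4 WT livers. The LKO-labelled males rest on 6 and 5 fragments, the females on 250 and 54. A count of 0 allows up to 3 fragments, here 0.133 to 0.166 FPKM in a WT library and 0.151 FPKM on average, so the LKO-labelled mean of 4.14 FPKM was at least 27.5-fold higher than in WT. Against the same floor of 0.151 FPKM, the mean of the LKO-labelled females was at least 53.4-fold higher and that of the LKO-labelled males at least 1.66-fold higher. LKO-labelled female 1 carried these bounds: without it the LKO-labelled mean was 1.06 FPKM, at least 7.06-fold higher, and female 2 alone was at least 17.8-fold higher. This floor covers counting error only.

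Over both sexes the log2 change of Areg, 1.59 ± 0.58, did not pass (limma adjusted p = 0.0652). It rose within females (2.86 ± 0.55, adjusted p = 0.00685), and the value within males was 0.32 (adjusted p = 0.738). The spread used in both tests includes the WT livers, all at 0. The difference between the sexes, 2.54 ± 0.77, did not pass (adjusted p = 0.0894), so the genotype effect is not shown to differ between them. Without LKO-labelled female 1 the log2 change over both sexes was 0.95.

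Tgfa encodes transforming growth factor alpha, another ligand of EGFR alone (ENSMUSG00000029999, chr6:86195223-86275719, plus strand), and was the most abundant of the 4 ligands in WT livers. It stood at 36.5 and 14.4 FPKM in LKO-labelled females and 3.90 and 9.46 FPKM in LKO-labelled males, against 5.65 and 6.08 FPKM in WT females and 4.92 and 6.90 FPKM in WT males. The LKO-labelled females lay above all WT livers, while the LKO-labelled males lay on either side of the WT range. Means were 16.1 ± 14.3 and 5.89 ± 0.827 FPKM (SD, n = 4 each, LKO-labelled first), with a log2 change of 0.94 ± 0.45 (limma adjusted p = 0.133).

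Within females Tgfa rose by 1.81 ± 0.48 on the log2 scale (limma adjusted p = 0.0245), and within males the change was 0.07 (adjusted p = 0.95). The difference between the sexes, 1.74, did not pass (adjusted p = 0.161). All 4 ligands passed the test within females, where 28.1% of genes were called higher, and Hbegf and Btc passed it within males, where 13.4% were. Without LKO-labelled female 1 the log2 change of Tgfa over both sexes was 0.51.

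The make-up of the ligand mRNA differed between the genotypes as well. Summed over the 4 ligands, FPKM came to 77.94 and 33.36 in LKO-labelled females and 14.95 and 21.54 in LKO-labelled males, against 6.50 and 6.77 in WT females and 5.83 and 7.39 in WT males. Tgfa made up 46.8, 43.2, 26.1 and 43.9% of that sum in LKO-labelled livers (females first), against 86.9, 89.9, 84.5 and 93.4% in WT livers. The Hbegf share was 9.51 to 34.4% in LKO-labelled livers, against 2.0 to 6.63% in WT livers, and the Btc share 14.4 to 46.2%, against 4.36 to 13.5%. The genotypes overlapped in none of these 4 quantities, which are descriptions of the same values and were not tested.

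**Figure D3:**
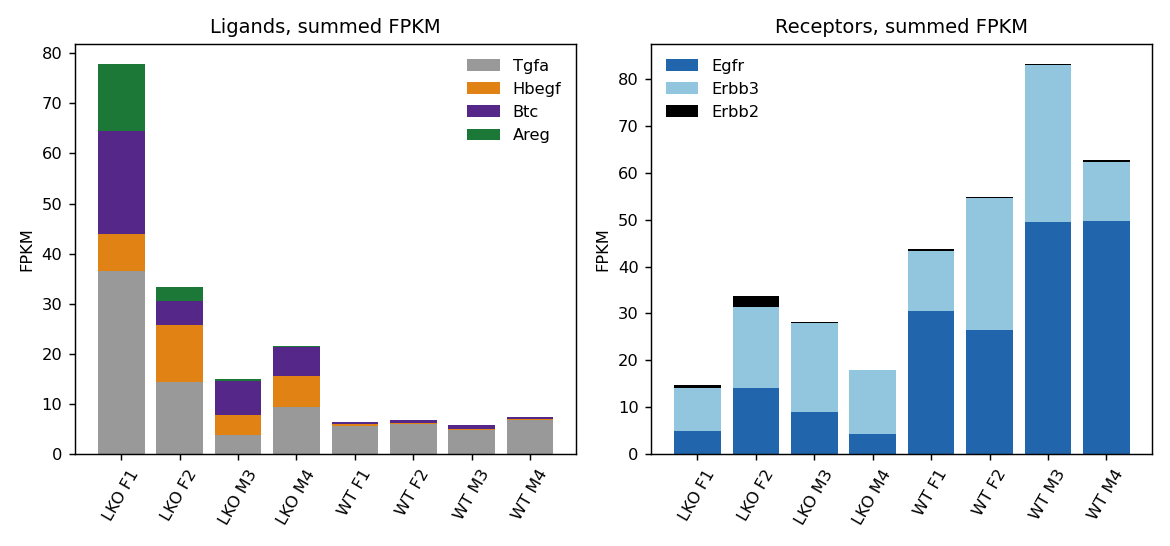
FPKM of the 4 ligands (left) and of the 3 receptors (right), stacked by gene, in each liver (F female, M male), with LKO-labelled livers left of WT livers. The ligand sum is 14.95 to 77.94 in LKO-labelled livers and 5.83 to 7.39 in WT livers, where Tgfa makes up most of it; the receptor sum is 14.77 to 33.8 in LKO-labelled livers and 43.69 to 83.25 in WT livers.

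Set against the receptor, the ligand sum was 15.73 and 2.35 times the Egfr level in LKO-labelled females and 1.66 and 4.96 times in LKO-labelled males, against 0.214 and 0.256 times in WT females and 0.118 and 0.149 times in WT males. Ligand mRNA thus exceeded Egfr mRNA in each LKO-labelled liver and stayed below it in each WT liver. These are mRNA ratios per length in whole liver, and they say nothing of protein.

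Errfi1 encodes MIG6, an inducible protein that binds the EGFR kinase and blocks it (ENSMUSG00000028967, chr4:150853919-150868892, plus strand), and was the most abundant of the 9 mRNAs. It stood at 78.3 and 236 FPKM in LKO-labelled females and 230.1 and 219 FPKM in LKO-labelled males, against 501 and 524 FPKM in WT females and 486 and 487 FPKM in WT males. The WT livers lay close together and the LKO-labelled livers all below them, with LKO-labelled female 1 lowest. Means were 191 ± 75.3 and 499.7 ± 17.8 FPKM (SD, n = 4 each, LKO-labelled first), so 38.2% of the WT level was left.

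The log2 change of Errfi1 was -1.51 ± 0.35 (limma adjusted p = 0.0158). Within females it was -1.91 (adjusted p = 0.0173), and within males -1.11 (adjusted p = 0.136), with no difference between the sexes that passed (-0.80, adjusted p = 0.482). Leaving out WT female 2 ended the call over both sexes (adjusted p = 0.0534).

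Relative to Egfr, Errfi1 stood at 15.8, 16.6, 25.6 and 50.4 times in LKO-labelled livers (females first), against 16.5, 19.9, 9.83 and 9.79 times in WT livers. The ratio overlapped between the genotypes in females and not in males. Both mRNAs were lower in every LKO-labelled liver than in any WT liver.

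Lrig1 encodes a leucine-rich membrane protein that promotes the removal of EGF receptors (ENSMUSG00000030029, chr6:94604529-94700158, minus strand). It stood at 16.7 and 8.73 FPKM in LKO-labelled females and 7.17 and 7.45 FPKM in LKO-labelled males, against 4.51 and 4.45 FPKM in WT females and 4.56 and 6.70 FPKM in WT males. The groups did not overlap, although the LKO-labelled males lay close above WT male 4. Means of 10.01 ± 4.5 and 5.05 ± 1.1 FPKM (SD, n = 4 each, LKO-labelled first) differed 1.98-fold, with a log2 change of 0.80 ± 0.27 that did not pass (limma adjusted p = 0.0534). Within females Lrig1 rose (1.26, adjusted p = 0.0185), the value within males was 0.34 (adjusted p = 0.492), and the difference between the sexes, 0.91, had an adjusted p of 0.241.

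**Figure D4:**
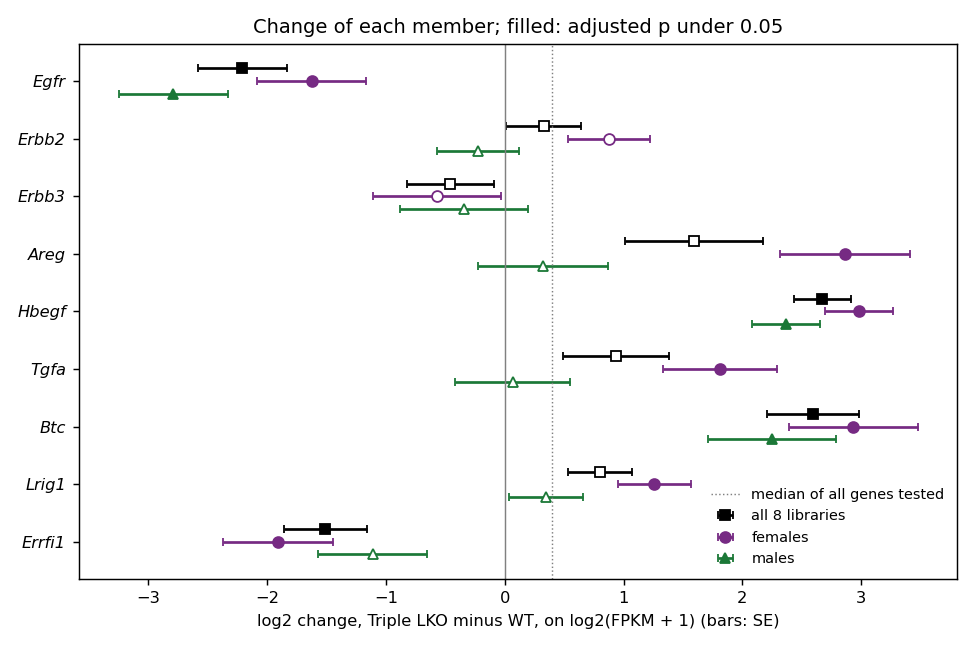
Log2 change of each of the 9 genes, LKO-labelled over WT, with its standard error, over both sexes, within females and within males; filled points passed an adjusted p of 0.05, and the dotted line is the median of all genes over both sexes. Hbegf and Btc lie to the right and Egfr to the left in both sexes. Areg, Tgfa, Lrig1, Erbb2, Hbegf, Btc and Egfr lie further right in females than in males, and none of these differences passed.

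None of the 9 genes passed the limma test of a difference between the sexes, which 7.21% of all genes passed. At an unadjusted p under 0.05 there were 2 of the 9, Areg and Tgfa, and 3462 of all 13573 genes tested. Across the alternatives to that test the difference passed for Areg in 3 of 15, for Erbb2 in 2 of 14, and for Egfr, Tgfa, Btc, Lrig1 and Errfi1 in 1 of 15 each. All of these were fits without an LKO-labelled female. The female minus male difference was positive for Areg, Tgfa, Lrig1, Erbb2, Hbegf, Btc and Egfr, which for Egfr means a smaller fall in females. It was negative for Erbb3 and Errfi1. The median of this difference over all genes was positive too, at 0.187.

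The genes whose levels followed Egfr most closely over the 8 livers were Cmah (Pearson r = 0.991 on log2 values), Cyp2d10 (0.987), Oaz1 (0.976) and Akr1c6 (0.976), among 11307 protein-coding genes with a mean of at least 1 FPKM. For Areg they were Miox (0.9997), Igsf9 (0.997), Gpr55 (0.997) and Cndp2 (0.997), a likeness that rests largely on the WT livers at 0 and on LKO-labelled female 1. All points share genotype, sex and library, so these values are descriptions with no test.

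Other genes of the pathway were counted in lists chosen by function. Among the other receptors and ligands 3 of 8 could be tested and 2 rose. Nrg4, a neuregulin that binds ERBB4, stood at 42.8 and 14.5 FPKM in LKO-labelled females and 22.7 and 39.2 FPKM in LKO-labelled males, against 5.83, 10.2, 3.28 and 11.2 FPKM in WT livers (females first). The groups did not overlap, and the log2 change was 1.83 ± 0.44 (limma adjusted p = 0.0182). Nrg1, a neuregulin that binds ERBB3 and ERBB4, stood at 0.946, 2.38, 0.101 and 0.720 FPKM in LKO-labelled livers and was listed at 0 in every WT liver (adjusted p = 0.0473), so that it reached the limit for testing through the LKO-labelled livers alone. Ereg, epiregulin, stood at 4.38 and 1.57 FPKM in the LKO-labelled females and at no more than 0.0949 FPKM in the LKO-labelled males, against 0.032 to 0.335 FPKM in WT livers. It reached the limit for testing only through those females. Ereg rose within females (1.70, limma adjusted p = 0.0102) and did not pass over both sexes (0.78, adjusted p = 0.167).

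Erbb4 and Egf were below the limit for testing. Erbb4, the receptor that Nrg4, Btc and Hbegf share, stood at 0 to 0.354 FPKM in LKO-labelled livers, against 0.305 to 0.787 FPKM in WT livers. Egf stood at 0.0501 to 0.213 FPKM in LKO-labelled livers, against 0.111 to 0.320 FPKM in WT livers.

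Of the genes for shedding and transport of the ligands 5 of 6 were tested and 3 rose, with a median log2 change of 1.02. Adam10, the protease that cuts betacellulin free, averaged 17.3 ± 5.46 FPKM in LKO-labelled livers and 7.19 ± 1.15 FPKM in WT livers (SD, n = 4 each; log2 change 1.12 ± 0.19, limma adjusted p = 0.00494). Rhbdf1 and Rhbdf2, the iRhom proteins that carry ADAM17 to the cell surface, rose by 1.16 and 1.02 (adjusted p = 0.0304 and 0.0225). Adam17 itself, the protease that cuts free amphiregulin, TGFA and HBEGF, had a value of 0.52 (adjusted p = 0.124).

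Of the 14 genes for receptor turnover and other brakes 7 rose and none fell, with a median of 0.58. Rnf41, a ubiquitin ligase for ERBB3, had a log2 change of 0.86 (limma adjusted p = 0.00912), Cblc, a ubiquitin ligase of the CBL family, 1.21 (adjusted p = 0.0113), Ptpn2, a tyrosine phosphatase, 0.82 (adjusted p = 0.0175), and Socs5, which promotes EGFR degradation, 0.78 (adjusted p = 0.0240). Among 8 receptor adaptors none passed with limma, and their median was 0.38. An unadjusted p under 0.05 was reached by 3 of the 8, and by 6240 of all 13573 genes tested. With voom on recovered fragments 2 passed. The smallest limma adjusted p values were those of Gab2 (1.03, adjusted p = 0.0515) and Grb2 (0.55, adjusted p = 0.0522), while Ptpn11 had 0.49 (adjusted p = 0.107) and Sos2 0.40 (adjusted p = 0.125).

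Of the 10 genes of the RAS to ERK cascade 3 rose, among them Nras (0.71, limma adjusted p = 0.0401) and the kinase gene Map2k1 (0.82, adjusted p = 0.0427), with Hras at 0.75 (adjusted p = 0.0514). Of the 8 feedback genes that ERK signalling is known to induce, Dusp5 rose, an ERK phosphatase at 2.38 ± 1.91 FPKM in LKO-labelled livers and 0.185 ± 0.108 FPKM in WT livers (SD, n = 4 each; 1.32, adjusted p = 0.0177). Dusp4 had 1.45 (adjusted p = 0.0515), Spry1 0.75 (adjusted p = 0.0634) and Spry4 -0.34 (adjusted p = 0.188).

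The background for these counts over both sexes is the 24.7% of genes called higher and the median of 0.39. Median-of-ratios scaling moved the median of all genes to 0.05, and with it no brake and no gene of the cascade passed higher, 1 shedding gene, 1 other ligand and 1 feedback gene did, and 2 adaptors and 1 feedback gene passed lower. Leaving out 1 library at a time gave 0 to 2 higher calls among the other receptors and ligands, 1 to 4 among the shedding genes, 2 to 7 among the brakes, 0 to 2 in the cascade and 0 to 2 among the feedback genes. Of the 48 genes tested in the 6 lists, 22 passed higher within females, where 28.1% of all genes did. Within males, where 13.4% of all genes did, 2 passed higher, Adam10 (0.98, limma adjusted p = 0.0338) and Rnf41 (0.79, adjusted p = 0.0434). The 4 member calls (Hbegf and Btc higher, Egfr and Errfi1 lower) kept their direction and passed with that scaling too.

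**Figure D5:**
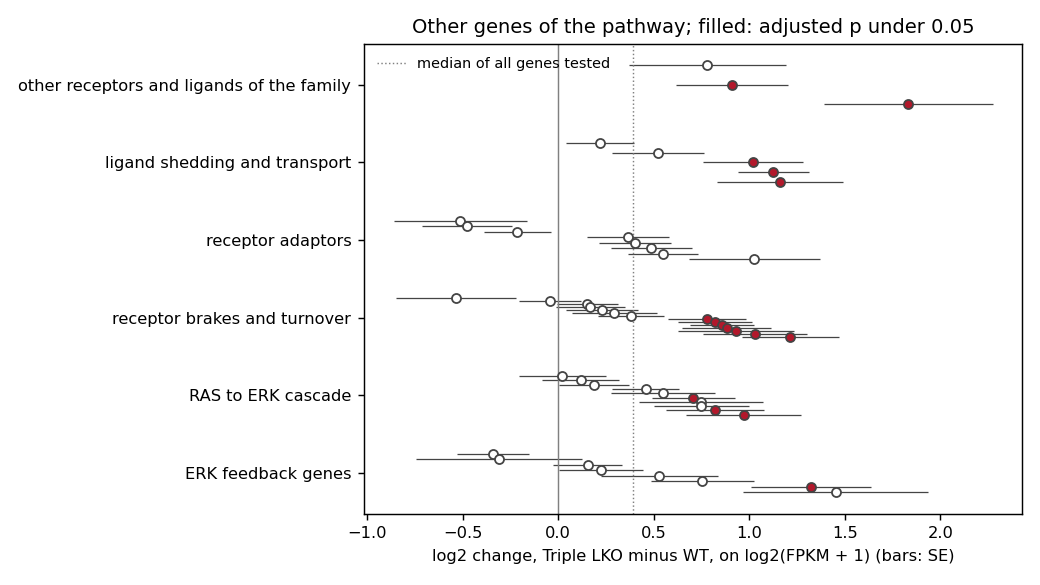
Log2 change, LKO-labelled over WT, of each tested gene in the 6 lists of other pathway genes; filled points passed the adjusted p of 0.05, bars are standard errors and the dotted line is the median of all genes, 0.39. Most points lie right of 0 and none of the filled ones left of it.

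Summed hepatocyte markers, mostly Alb, stood at 21310 to 32060 FPKM in LKO-labelled livers, against 44060 to 48270 FPKM in WT livers. Alb itself did not pass (limma adjusted p = 0.0715). Of the 8 markers 2 passed lower (Serpina1c and Hnf4a) and none higher. Within females 4 passed lower and within males 3, against 6.23% and 4.09% of all genes, and none higher. Apoa1 stood at 3936 and 4300 FPKM in LKO-labelled females, against 3499 and 3117 FPKM in WT females. Cps1 stood at 1422 and 1096 FPKM in LKO-labelled males, against 770 and 733 FPKM in WT males. Of the other cell types, the number of markers that passed higher and lower was 4 and 1 of 7 for stellate cells and fibroblasts, 2 and 1 of 7 for endothelial cells, 1 and 2 of 7 for macrophages and 3 and 0 of 3 tested for neutrophils. The shares over all genes tested were 24.7% higher and 5.74% lower. None of 4 tested cholangiocyte and 6 lymphocyte markers passed with limma, with 0 and 1 at an unadjusted p under 0.05 and 0 and 1 past the threshold with voom. That unadjusted limit was reached by 6240 of all 13573 genes tested. None of the 48 markers was at 0 in all 8 libraries.

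In the LKO-labelled females the summed markers reached 427 and 1428 FPKM for stellate cells and fibroblasts, 621.8 and 912.1 FPKM for macrophages, mostly Lyz2, and 298.5 and 3173 FPKM for cholangiocytes, mostly Spp1. WT livers had at most 118.7, 252.4 and 26.4 FPKM. Within females 4 of the 7 macrophage markers passed higher and 3 lower (Clec4f, Marco and Cd5l), against 28.1% and 6.23% of all genes. Endothelial sums ran over 49.0 to 175 FPKM in LKO-labelled livers, against 53.6 to 86.1 FPKM in WT livers, and lymphocyte sums over 1.61 to 30.2 FPKM, against 1.51 to 7.46 FPKM. The neutrophil sum, mostly S100a8 and S100a9, was 381.1 and 58.0 FPKM in those females, against at most 4.58 FPKM in WT livers. Areg, Hbegf, Tgfa, Lrig1, Erbb2, Nrg1 and Ereg were highest in these 2 livers, and Btc in female 1, and the part of these cells in those values was not tested. In the LKO-labelled males the sums were 15.17 and 12.4 FPKM for cholangiocytes, 58.95 and 113.3 FPKM for macrophages and 40.75 and 47.52 FPKM for stellate cells and fibroblasts, none above the WT range. The stellate sum was carried by Dcn (21.1 and 29.8 FPKM in those males, against 56.3 to 100.7 FPKM in WT livers). Lrat was lower too, at 0.239 and 1.06 FPKM, against 3.96 to 9.49 FPKM in WT livers. Col3a1 and Pdgfrb lay within the WT range. Col1a2 (3.28 and 2.85 FPKM, against 0.860 to 2.72 FPKM in WT livers), Acta2 and Col1a1 stood above it. Acta2 was at 6.96 and 5.26 FPKM, against 1.15 to 2.11 FPKM in WT livers, and rose within males (1.58, limma adjusted p = 0.0166), and Col1a1 was at 2.69 and 2.55 FPKM, against at most 1.73 FPKM in WT livers (1.59, adjusted p = 0.0983). Neutrophil markers summed to 9.42 and 15.67 FPKM in those males, above the WT range. Most of this was S100a8 (2.99 and 4.86 FPKM) and S100a9 (5.44 and 8.54 FPKM). Csf3r stood at 0.994 and 2.21 FPKM, against 0.398 to 0.710 FPKM in WT livers. Ly6g stood at 0 and 0.0596 FPKM, and Mpo at 0 in both males. In the LKO-labelled females Ly6g (0.614 and 0 FPKM) and Mpo (0.0233 and 0.195 FPKM) were low as well. Of the 3 neutrophil markers tested, 0 passed within males. Hbegf and Btc rose and Egfr fell within the same males, and the part of these cells in that was not tested.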

How the data were processed

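RNA of 8 mouse livers was sequenced. The submitters' processing notes list fastp, HTSeq, DESeq2, STAR 2.6.1 and mm10. What each was used for, and whether counting used strand, is not given in the sources used here; without strand, overlapping genes share reads. The table deposited by the authors holds FPKM values. Its steps gave whole fragments to within 0.001 of a fragment for 100% of genes, and these summed to 99.955 to 99.966% of depths of 15.1 to 18.8 M fragments. Groups and sexes follow the labels.

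Genes with a mean of at least 0.5 FPKM over the 8 libraries, 13573 of 35275, were tested with limma 3.58.1 (trend) in R 4.3.3 on log2(FPKM + 1), a pseudocount of 1, with genotype and sex as terms. Sex-specific changes and their difference came from a model with 1 mean for each genotype and sex. The spread in that model was shared by all 8 libraries. P-values were adjusted by Benjamini-Hochberg over all genes tested. The steps were tested on simulated data. Alternatives were other pseudocounts, filters and scalings, leaving out libraries, limma-voom on recovered fragments and a block on neighbouring title numbers.

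All 9 listed genes are named; of each other pathway list the 4 genes with the smallest p are, plus Egf and Erbb4; 1 gene of these lists is not reported here by name. The members and lists were chosen with earlier results of these data known. Coordinates are 1-based. No protein sequences were used.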

Additional observations from a re-analysis of the deposited data

Results flagged for a closer look

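In 4 of 17 groups of 4 libraries (each genotype for each of the 9 genes, Areg in WT livers left out because all 4 are at 0), 1 library stood apart from the other 3 by more than Dixon's 95% limit, measured as its gap to the nearest other library over the range of the group; chance does so in about 1 in 20 groups. Btc stood at 20.6 FPKM in LKO-labelled female 1, a gap of 0.867 of the range. Lrig1 stood at 16.7 FPKM in the same liver (0.836), and Errfi1 at 78.3 FPKM, the lowest of its group (0.896). In WT livers Lrig1 stood at 6.7 FPKM in male 4 (0.948). LKO-labelled female 1 and WT male 4 are also the 2 libraries with little Gm42418, and whether that bears on these values was not tested. Without LKO-labelled female 1 the log2 changes were 2.14 for Btc, 0.54 for Lrig1 and -1.12 for Errfi1.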

How the results depend on the processing

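Of 18 alternatives to the test over both sexes, the log2 change of Egfr (-2.62 to -1.87), Hbegf (2.29 to 5.01) and Btc (2.01 to 4.0) passed in 18 and that of Errfi1 (-1.95 to -1.12) in 17, the exception being the fit without WT replicate 2. Lrig1 passed in 4 (0.35 to 0.99), Areg in 2, with a pseudocount of 0.1 (3.87, limma adjusted p = 0.0149) and with voom (6.02, adjusted p = 0.00887), and Tgfa in 1, without LKO-labelled replicate 3 (1.33, adjusted p = 0.0447). Erbb2 (17 alternatives) and Erbb3 passed in none. Values that changed sign had not passed: Erbb2 was -0.059 with quantile normalization, and the sex difference of Erbb3 was 0.19 without LKO-labelled replicate 1, 0.00 without LKO-labelled replicate 3, 0.31 without WT replicate 2, 0.45 without WT replicate 4 and 0.86 without the 2 libraries low in Gm42418. The Btc sex difference was -0.26 without LKO-labelled replicate 1 and -0.046 without those 2 libraries. Leaving out 1 library at a time gave -0.90 to 0.45 for Erbb3 and -0.26 to 1.64 for Btc. The cause was not tested.

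Genes past the threshold over both sexes numbered 4132 (3353 higher, 779 lower), 2898 (1417 and 1481) with median-of-ratios scaling, 3580 (2683 and 897) without the 50 most abundant genes, 2421 (1045 and 1376) with quantile normalization, 1970 without the 2 libraries low in Gm42418 and 2505 with a block on neighbouring title numbers. The block kept the 4 member calls; higher calls numbered 1 for other receptors and ligands (2 without it), 2 for shedding genes (3), 5 for brakes (7), 1 for the cascade (3), 2 for stellate markers (4) and 0 for endothelial markers (2). Replicate numbers, given in sample order, join the same livers as the block, and no label says what these share. Within males there were 1574 with no filter on low values and 1559 with quantile normalization, against 2374. The sex difference was passed by 577 with a pseudocount of 0.1 and by 604 with no filter, against 978. Leaving out 1 library at a time gave 1957 to 4054 genes over both sexes, 1999 to 6023 within females, 341 to 4141 within males and 31 to 2837 for the sex difference. With 2 livers for each genotype and sex, and fewer than 10 fragments behind Areg and Erbb2 in LKO-labelled males, differences within males were not well measured.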
